A study of Mus musculus with 5 samples.

Results

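Tubulin isotypes were followed in mouse neural stem cells (NSCs) and in the embryonic fibroblast line STO. They were taken by gene symbol and comprise 3 alpha-tubulin genes (Tuba1a, Tuba1b and Tuba1c) and 7 beta-tubulin genes (Tubb2a, Tubb2b, Tubb3, Tubb4a, Tubb4b, Tubb5 and Tubb6), 10 of the 25414 genes in the expression tables. The NSCs were primary cells of C57BL/6 mouse embryonic cortex, grown without feeder cells on poly-l-ornithine and laminin with EGF, bFGF, heparin and B27 for 5 to 8 passages; RNA from 2 replicates was read. The STO line is a continuous line of fibroblasts that came from SIM mouse embryos and is resistant to thioguanine and ouabain, although its labels give C57BL/6. It was grown in serum for more than 30 passages, and 3 replicates were read. Neither cell type carried a transgene or received a treatment in these samples. The cell types thus differed in culture medium, serum and passage number as well as in origin, and these cannot be told apart. Nothing in the sources says whether the replicates came from separate animals or cultures, so the p-values measure the spread between these samples, which may be technical.

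Microtubules are hollow polymers of a dimer of alpha- and beta-tubulin. Mammals encode each subunit in several genes, called isotypes, whose proteins are nearly alike in the body of the molecule and differ mostly in the acidic tail at the carboxyl end, where many microtubule-associated proteins bind and where glutamate chains are added. Developing brain is known for high expression of Tuba1a, Tubb2a, Tubb2b and, in neurons, Tubb3, while Tuba1b, Tubb5 and Tubb4b are expressed in most dividing cells.

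Expression was measured as FPKM, the number of sequenced fragments per kilobase of transcript scaled to the depth of the library, so levels of different genes can be set side by side. FPKM summed over all transcripts to between 385485 and 446393 per sample. The intervals deposited with the values correspond to between 15223341 and 22271895 fragments per sample, and this depth limits the values of Tubb4a in STO cells more than those of the other isotypes. Over genes, log2 levels correlated at 0.994 to 0.996 between samples of the same cell type and at 0.617 to 0.623 between cell types, and no library stood apart. The labels were checked against markers. The summed level of 8 neural stem cell markers was 3925 to 4155 FPKM in NSCs and 43.0 to 52.2 FPKM in STO cells, where Sox2 and Pax6 were listed at 0. Most of the NSC sum was Fabp7, at 2783 and 3041 FPKM. Nearly all of the STO sum was Sox9, at 51.0, 51.8 and 42.5 FPKM, a marker present in both cell types (97.7 and 111 FPKM in NSCs). The 8 fibroblast markers summed to 5.05 to 5.12 FPKM in NSCs and 1536 to 1636 FPKM in STO cells.

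Each isotype was represented by 1 RefSeq transcript at 1 locus. In the mm9 coordinates of the files, the 3 alpha genes lay together on chromosome 15, Tuba1b at chr15:98761862-98764821, Tuba1a at chr15:98780278-98783932 and Tuba1c at chr15:98860322-98868536. Tuba1b and Tuba1a were 15.5 kb apart with no gene of the tables between them. Tubb2a (chr13:34166147-34169877) and Tubb2b (chr13:34218877-34222223) were also close, 49.0 kb apart with 1 other gene, 4930447K03Rik, between them. The other beta genes stood alone: Tubb3 at chr8:125935464-125945910, Tubb4b at chr2:25077678-25080222, Tubb5 at chr17:35970865-35975246 and Tubb4a, also on chromosome 17, at chr17:57219489-57227205.

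The last 60 coding bases, stop codon included, encode the carboxyl tail. They are shown for the 3 beta genes on which the comparison turned, read from the mm9 genome, 5′ to 3′ on the coding strand. Capitals mark bases that differ from Tubb5, or have no counterpart in it, in an alignment of the whole coding sequences.
Tubb5 (chr17:35971927-35971986, minus strand): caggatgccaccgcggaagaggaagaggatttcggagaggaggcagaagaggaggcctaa
Tubb2a (chr13:34166337-34166396, minus strand): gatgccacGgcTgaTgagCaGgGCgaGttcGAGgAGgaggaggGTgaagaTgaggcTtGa
Tubb2b (chr13:34219340-34219399, minus strand): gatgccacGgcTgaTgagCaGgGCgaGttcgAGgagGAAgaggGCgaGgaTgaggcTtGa
Tubb2a and Tubb2b differed from Tubb5 at 18 and 19 of the 60 bases, 30.0% and 31.7%, against 14.9% and 15.3% over the rest of the coding sequence. Tubb3 differed from Tubb5 at 53.3% of the tail and 17.2% of the rest. These counts include bases with no counterpart in Tubb5. The coding sequence of Tubb5 is 1335 bases long, against 1338 for Tubb2a and for Tubb2b and 1353 for Tubb3.

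Near-identical sequence bears on how the fragments could be assigned. The coding sequences of Tuba1a and Tuba1b were 98.3% identical, those of Tuba1b and Tuba1c 97.9%, and those of Tubb2a and Tubb2b 96.5%, whereas every other beta pair was between 80.2% and 85.7% identical. Of the 100-base windows of each transcript, 42.3% for Tuba1a, 52.3% for Tuba1b and 53.6% for Tuba1c also occurred in another of the 10 isotypes, as did 36.6% for Tubb2a and 29.8% for Tubb2b. No window of Tubb4a, Tubb5 or Tubb6 occurred in another isotype or elsewhere in the genome. Tubb4b shared no window with another isotype, but 30.0% of its windows occurred elsewhere in the genome. With the rest of the genome counted as well, the shares were 55.0% for Tuba1a, 74.4% for Tuba1b and 53.6% for Tuba1c. For Tubb2a and Tubb2b they were 37.6% and 34.9%. The division of fragments among the 3 alpha genes, and between Tubb2a and Tubb2b, is therefore uncertain to an extent the files do not show. Their sums depend less on this division, but they still depend on fragments that match elsewhere in the genome, the alpha sum most.

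**Figure D1:**
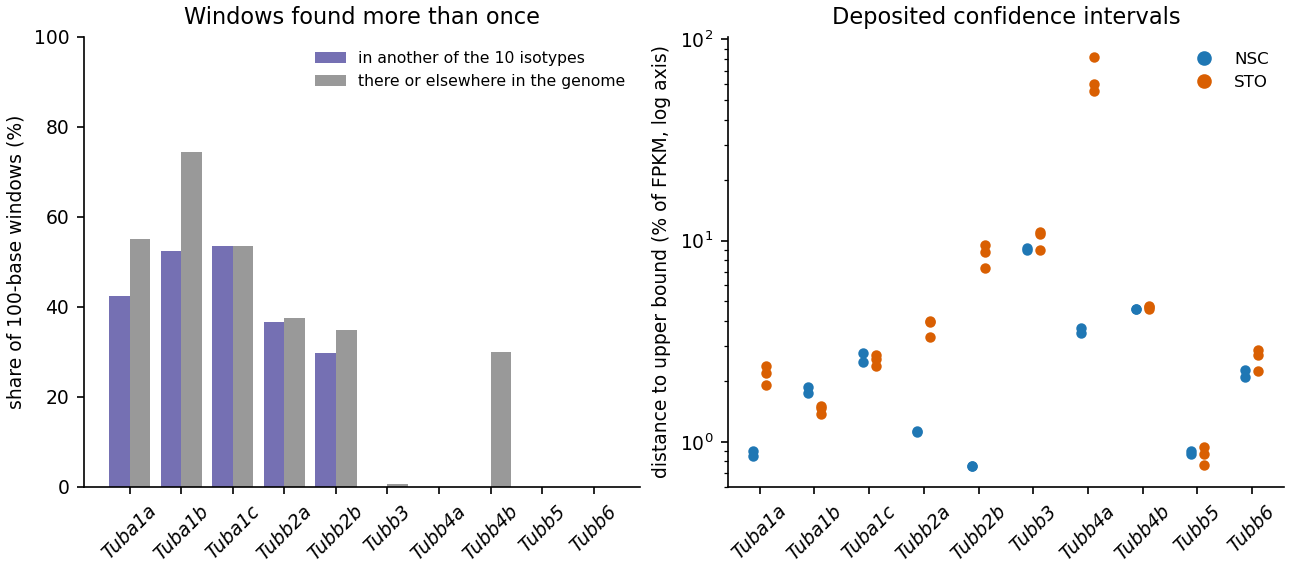
Left, the share of 100-base windows (%) of each isotype's transcript that occur in another of the 10 isotypes (purple) or there or elsewhere in the mm9 genome (grey). Right, the distance from each deposited FPKM value to its upper bound, in % of the value on a log axis, for each NSC and STO sample; the alpha genes, Tubb2a, Tubb2b and Tubb4b have repeated windows, and Tubb4a in STO cells has the widest intervals, 55.5% to 81.7%.

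Of the 10 isotypes, 3 were higher and 5 were lower in STO cells than in NSCs at an adjusted p-value under 0.05 (limma on log2(FPKM + 1), Benjamini-Hochberg adjustment over the 12292 genes with a mean of at least 1 FPKM in either cell type). The same test called 41.9% of all genes higher and 43.7% lower, so a call by itself was common, and the sizes of the differences are what follows. All 10 isotypes passed the filter. Tubb4a, 1 of the 5 lower, passed through its NSC level alone, which fixes its direction. The FPKM ranges of the cell types did not overlap for the same 3 higher and 5 lower isotypes; over all genes tested, ranges did not overlap for 43.9% in the higher direction and 46.0% in the lower. Tubb3 and Tubb4b were the 2 isotypes with overlapping ranges.

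**Figure D2:**
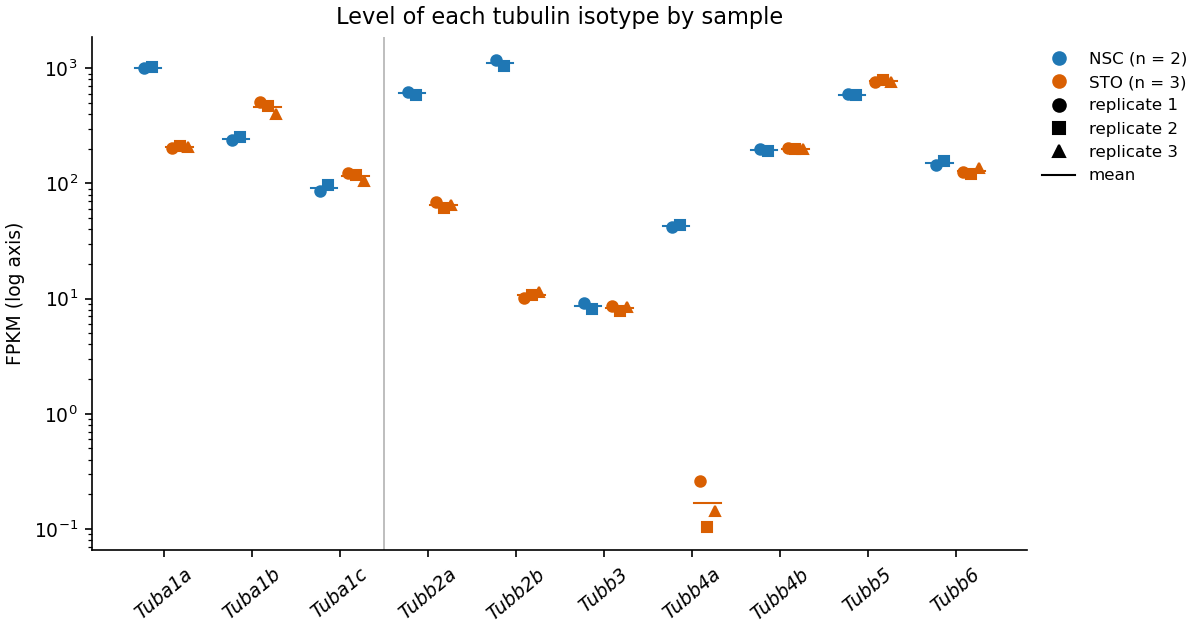
FPKM on a log axis for each tubulin isotype in NSC replicates 1 and 2 (blue) and STO replicates 1 to 3 (orange), with horizontal lines at the means; alpha genes are left of the grey line. Tuba1a, Tubb2a, Tubb2b and Tubb4a sit far lower in STO cells, Tuba1b and Tubb5 sit higher, and Tubb3 and Tubb4b overlap.

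Among the alpha genes, Tuba1a, the alpha isotype best known from developing neurons and from human brain malformations, was 999 and 1032 FPKM in the NSC replicates and 202, 210 and 206 FPKM in the STO replicates. Both NSC samples were far above all 3 STO samples. It fell by 2.29 ± 0.060 (SE) on the log2 scale (limma, adjusted p = 1.66e-07), and its mean was 4.92-fold higher in NSCs.

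Tuba1b, its neighbour and a broadly expressed isotype, moved the other way. It was 237 and 251 FPKM in NSCs and 511, 470 and 402 FPKM in STO cells, a log2 difference of 0.91 ± 0.11 (SE) by limma (adjusted p = 0.000291). The lowest STO sample was still above the highest NSC sample, although the STO samples spread by 55.0 FPKM (SD, n = 3). Tuba1c, another widely expressed alpha isotype, was 85.2 and 97.0 FPKM in NSCs and 123, 118 and 106 FPKM in STO cells, without overlap. It was 0.34 ± 0.090 (SE) higher in STO cells on the log2 scale (limma, adjusted p = 0.0117). This call rested on NSC replicate 1, since without that sample the difference was 0.25 with an adjusted p of 0.12 (limma).

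Tuba1a led the alpha total in NSCs and Tuba1b in STO cells. Tuba1a made up 75.6% and 74.8% of summed alpha-tubulin FPKM in NSCs and 24.2%, 26.4% and 28.9% in STO cells. Tuba1b made up 17.9% and 18.2% in NSCs and 61.1%, 58.9% and 56.3% in STO cells. Tuba1c rose from a mean share of 6.74% ± 0.408 (SD, n = 2) to 14.8% ± 0.0511 (SD, n = 3). The ratio of Tuba1a to Tuba1b was 4.22 and 4.11 in NSCs and 0.396, 0.448 and 0.513 in STO cells. Every NSC sample was above 1 and every STO sample below it.

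Among the beta genes, Tubb2b, an isotype of the developing brain, had the widest difference of the 10 on the log2(FPKM + 1) scale, although with 0.1 added in place of 1 Tubb4a was wider, at -7.35 against -6.69. Tubb2b was 1178 and 1054 FPKM in NSCs, the highest mean of any isotype there, and 10.1, 10.7 and 11.3 FPKM in STO cells. It fell by 6.57 ± 0.073 (SE) on the log2(FPKM + 1) scale (limma, adjusted p = 6.56e-09), and the means stood 104-fold apart. By size of the log2 difference it was number 69 of the 12292 genes tested.

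Tubb2a lies close to Tubb2b and is also an isotype of the nervous system. It was 626 and 589 FPKM in NSCs and 68.9, 61.2 and 65.2 FPKM in STO cells. It fell by 3.20 ± 0.071 (SE) on the log2 scale (limma, adjusted p = 7.71e-08), a 9.33-fold difference of the means. The ratio of Tubb2b to Tubb2a was 1.88 and 1.79 in NSCs and 0.147 to 0.175 in STO cells. Because their sequences share windows, the pair was also summed, a choice made after the values were seen. The sum was 1804 and 1643 FPKM in NSCs and 79.1, 72.0 and 76.5 FPKM in STO cells, and it fell by 4.49 ± 0.073 (SE) on the log2 scale (limma, adjusted p = 2.16e-08).

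Tubb4a, a beta isotype of brain that is prominent in oligodendrocytes, was 41.6 and 43.4 FPKM in NSCs and 0.259, 0.104 and 0.144 FPKM in STO cells. The STO values correspond to about 13, 6 and 11 fragments by their deposited intervals, so that the mean ratio of 252 is imprecise. On the log2(FPKM + 1) scale Tubb4a fell by 5.22 ± 0.072 (SE; limma, adjusted p = 1.2e-08), with a direction fixed by the filter. The size depends on the number added before the logarithm: with 0.1 in place of 1 it fell by 7.35 ± 0.24 (SE). Oligodendrocyte markers moved with it: 6 markers summed to 249 to 253 FPKM in NSCs, with Mbp at 83.4 and 88.3 FPKM, and to 2.33 to 2.52 FPKM in STO cells. Their part in the Tubb4a difference was not tested. In bulk RNA, fewer cells of a type cannot be told apart from less RNA per cell.

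Tubb5, the main beta isotype of most dividing cells, was already abundant in NSCs at 597 and 586 FPKM and was 767, 784 and 762 FPKM in STO cells. It was 0.38 ± 0.064 (SE) higher in STO cells on the log2 scale (limma, adjusted p = 0.00145), with no overlap. Proliferation markers were also a little apart, with a summed level of 244 to 251 FPKM in NSCs and 295 to 311 FPKM in STO cells. Of the 4 markers, 2 were called higher and 1 lower, against 41.9% and 43.7% of all genes. Their part in the Tubb5 difference was not tested.

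Tubb4b, a widely expressed isotype also used in cilia, was 200 and 192 FPKM in NSCs and 204, 199 and 199 FPKM in STO cells. The samples of the cell types were interleaved, and the log2 difference was 0.036 with a 95% interval from -0.097 to 0.17 (limma, adjusted p = 0.55). The deposited interval of Tubb4b reached 4.55% to 4.75% from the value, wider than the 1.91% to 2.38% of Tuba1a at a similar level in STO cells. When each sample was scaled to a common FPKM sum (TPM), Tubb4b was called 0.21 higher in STO cells (adjusted p = 0.00996), and after quantile normalization 0.19 higher (adjusted p = 0.0154). These scalings moved the median of all genes from -0.023 to 0.12 and 0.037 on the log2 scale.

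Tubb3, whose protein is the usual marker of young neurons, was the lowest isotype in NSCs, at 9.25 and 8.14 FPKM, and was 8.57, 7.84 and 8.49 FPKM in STO cells. The ranges overlapped, and the log2 difference was -0.058 with a 95% interval from -0.24 to 0.12 (limma, adjusted p = 0.48). Its sign turned on the TPM scale and without NSC replicate 1, to 0.10 and 0.024, neither of them called. Neuron markers were mixed beside it. Rbfox3, Stmn2 and Neurod6, markers of maturing neurons, were under 1 FPKM in both NSC samples, and Dcx was 4.87 and 4.56 FPKM. Gap43, a growth cone protein, was 362 and 360 FPKM in NSCs and under 1 FPKM in STO cells. Of the 9 neuron markers tested, 7 passed the filter through their NSC level alone and 1, the neurofilament gene Nefl, through its STO level alone, so their directions were fixed by the filter. The remaining marker, Map2, was over 1 FPKM in both cell types, at 100 and 102 FPKM in NSCs and 4.26, 4.48 and 4.19 FPKM in STO cells.

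Tubb6, a beta isotype found mostly outside the brain, was 144 and 157 FPKM in NSCs and 126, 121 and 137 FPKM in STO cells. It was lower in STO cells by a small amount, -0.23 ± 0.076 (SE) on the log2 scale (limma, adjusted p = 0.0283). The call was lost when NSC replicate 1, NSC replicate 2, STO replicate 1 or STO replicate 2 was left out, with differences of -0.29, -0.17, -0.22 and -0.19. It was also lost on the TPM scale and after quantile normalization, at -0.056 and -0.079.

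**Figure D3:**
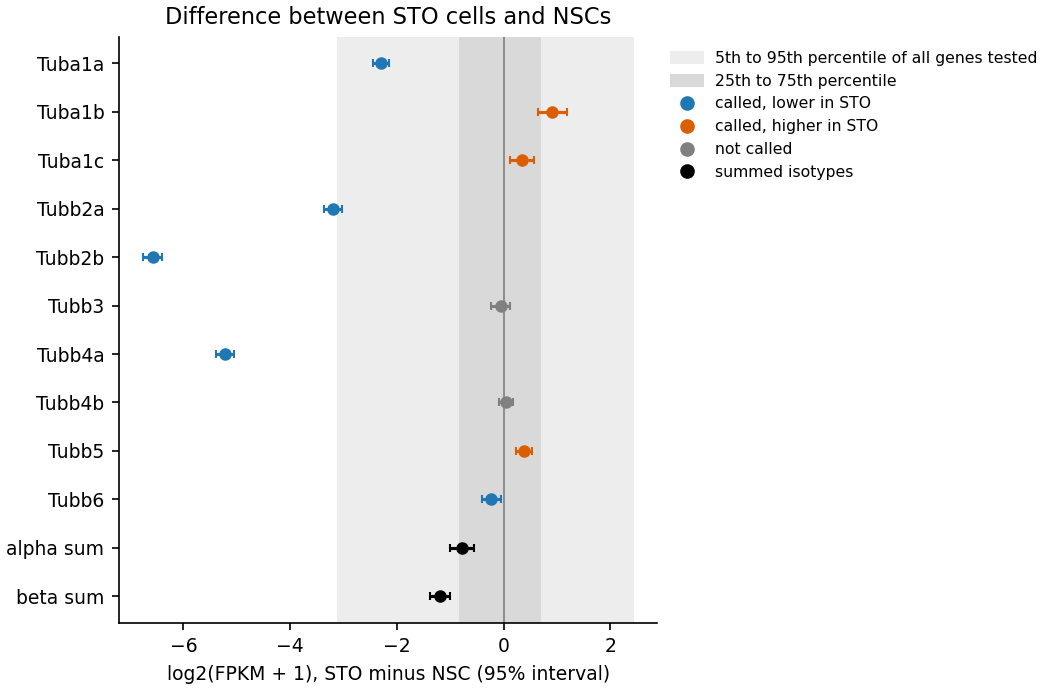
Log2(FPKM + 1) in STO cells minus NSCs for each isotype and for the summed alpha and beta isotypes, with 95% intervals from limma; shaded bands mark the 5th to 95th and 25th to 75th percentiles of all 12292 genes tested. Tubb2b, Tubb4a and Tubb2a lie below the 5th percentile, at -3.10, while no isotype lies above the 95th, at 2.42.

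The beta composition shifted from Tubb2b and Tubb2a to Tubb5. Tubb2b made up 42.2% and 40.1% of summed beta-tubulin FPKM in NSCs and 0.857%, 0.906% and 0.957% in STO cells. Tubb2a made up 22.4% in both NSC samples and 5.82%, 5.17% and 5.51% in STO cells. Tubb5 made up 21.4% and 22.3% in NSCs and 64.8%, 66.2% and 64.4% in STO cells. Tubb4a fell from a mean share of 1.57% ± 0.116 (SD, n = 2) to 0.0143% ± 0.00678 (SD, n = 3).

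The 3 remaining beta isotypes took larger shares in STO cells without being called higher in level as deposited. Tubb4b went from 7.21% ± 0.107 (SD, n = 2) to 16.9% ± 0.222 (SD, n = 3), Tubb6 from 5.54% ± 0.580 to 10.8% ± 0.700, and Tubb3 from 0.320% ± 0.0150 to 0.701% ± 0.0343. A share is set against a sum, and the sum of the beta isotypes itself was lower in STO cells.

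**Figure D4:**
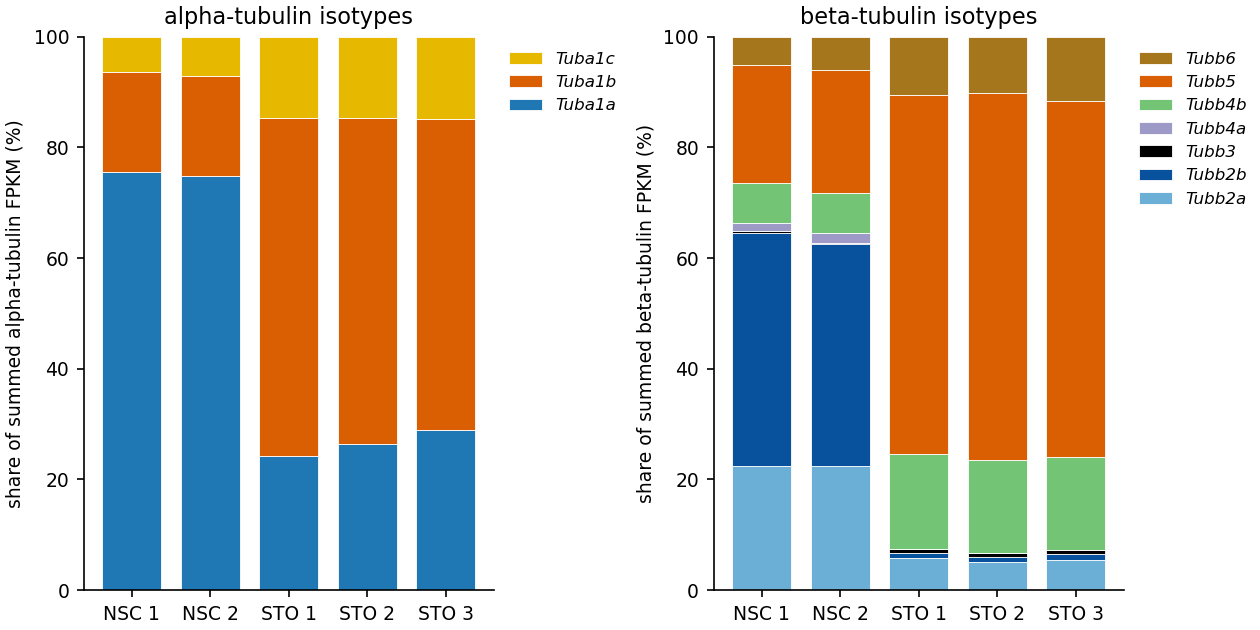
Share (%) of each isotype in the summed FPKM of the 3 alpha genes (left) and the 7 beta genes (right), stacked for each NSC and STO sample. Tuba1a fills 74.8% to 75.6% of the alpha bars of NSCs and Tuba1b 56.3% to 61.1% of those of STO cells; Tubb2a and Tubb2b together fill most of the beta bars of NSCs, and Tubb5 64.4% to 66.2% of those of STO cells.

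With every gene scaled to the alpha or beta sum of its own sample, the shares of Tuba1b, Tuba1c, Tubb3, Tubb4b, Tubb5 and Tubb6 were called higher and those of Tuba1a, Tubb2a, Tubb2b and Tubb4a lower in STO cells by limma. Because the sums were themselves lower in STO cells, this scaling raised most genes: 67.3% of all genes were called higher and 20.2% lower against the alpha sum, and 78.1% higher and 14.4% lower against the beta sum. The direction of 6 higher shares is thus near the background. The 4 lower shares went against it, but these isotypes are themselves part of the sums that set the background. Shares of a sum also cannot all move the same way, so this contrast is in part built in. On this scale Tubb2b was -5.38 and Tuba1a -1.50, against 1.70 for Tuba1b and 1.58 for Tubb5. The p-values and standard errors of this fit are not given, because the spread of a sample's sum enters every gene of that sample. Its calls are read for direction only. An exact two-sided permutation test over samples gave p = 0.1 for the share of each isotype, the smallest value that 2 against 3 samples allow.

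The amounts differed as well. The alpha isotypes summed to 1321 and 1380 FPKM in NSCs and 837, 798 and 714 FPKM in STO cells, and the sum fell by 0.79 ± 0.092 (SE) on the log2 scale (limma, adjusted p = 0.000244). The beta isotypes summed to 2795 and 2629 FPKM in NSCs and 1184, 1185 and 1183 FPKM in STO cells, and fell by 1.19 ± 0.077 (SE; limma, adjusted p = 1.28e-05). The 3 STO samples had almost the same beta sum although their alpha sums spread. After quantile normalization the alpha sum fell by 0.35 and the beta sum by 0.86. Together the 10 isotypes held 0.929% and 0.898% of all FPKM in NSCs and 0.510%, 0.514% and 0.474% in STO cells. Alpha FPKM was 0.473 and 0.525 of beta FPKM in NSCs and 0.707, 0.674 and 0.604 of it in STO cells, without overlap (exact two-sided permutation test, p = 0.1, the smallest possible).

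The order of levels followed from these values. In NSCs it ran from Tubb2b and Tuba1a through Tubb2a, Tubb5, Tuba1b, Tubb4b, Tubb6, Tuba1c and Tubb4a to Tubb3, and Tubb2a and Tubb5 were the only neighbours whose ranges overlapped. In STO cells it ran from Tubb5 and Tuba1b through Tuba1a, Tubb4b, Tubb6, Tuba1c, Tubb2a, Tubb2b and Tubb3 to Tubb4a. There, Tuba1a overlapped with Tubb4b and Tubb6 with Tuba1c. Tubb2b went from rank 1 to rank 8, and Tubb5 from rank 4 to rank 1.

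Sequence before the transcription start was read from the RefSeq promoter table (GRCm38.p6), which matched 8 of the 10 isotypes; Tubb2b and Tubb6 were not matched. The 250 bases before the start are shown for the neighbours Tuba1a and Tuba1b, which moved in opposite directions, and for Tubb2a and Tubb5, likewise opposed. Capitals mark CCAAT, the GC box GGGCGG and TATAAA on either strand.
Tuba1a (chr15:98953502-98953751, minus strand): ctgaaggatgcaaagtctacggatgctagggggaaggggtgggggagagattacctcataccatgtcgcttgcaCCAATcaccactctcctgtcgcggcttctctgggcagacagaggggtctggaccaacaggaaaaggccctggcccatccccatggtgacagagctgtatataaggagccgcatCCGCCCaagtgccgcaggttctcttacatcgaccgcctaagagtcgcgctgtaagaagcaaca
Tuba1b (chr15:98934391-98934640, minus strand): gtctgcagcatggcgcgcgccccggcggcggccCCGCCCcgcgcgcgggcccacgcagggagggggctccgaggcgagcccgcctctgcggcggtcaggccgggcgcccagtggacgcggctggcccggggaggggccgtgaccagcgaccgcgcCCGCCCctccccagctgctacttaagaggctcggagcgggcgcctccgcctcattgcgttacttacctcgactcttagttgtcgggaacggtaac
Tubb2a (chr13:34078009-34078258, minus strand): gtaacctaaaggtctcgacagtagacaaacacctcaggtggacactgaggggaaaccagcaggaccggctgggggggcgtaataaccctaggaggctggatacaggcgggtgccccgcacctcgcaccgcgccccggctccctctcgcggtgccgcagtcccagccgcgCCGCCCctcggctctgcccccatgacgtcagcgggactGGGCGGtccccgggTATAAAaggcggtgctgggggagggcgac
Tubb5 (chr17:35838302-35838551, minus strand): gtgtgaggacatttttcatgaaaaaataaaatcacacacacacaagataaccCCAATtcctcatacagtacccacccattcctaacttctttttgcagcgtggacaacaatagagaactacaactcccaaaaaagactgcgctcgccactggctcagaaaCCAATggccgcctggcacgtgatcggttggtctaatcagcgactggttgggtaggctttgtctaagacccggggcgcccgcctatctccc
CCAAT occurred in 5 of the 8 windows (Tuba1a, Tuba1c, Tubb3, Tubb4b and Tubb5) and in 33.8% of the 32851 promoters of the table. GGGCGG occurred in 5 of the 8 (Tuba1a, Tuba1b, Tubb2a, Tubb3 and Tubb4b) and in 32.7% of all promoters, and TATAAA in Tubb2a alone and in 12.4% of all. The base composition of the neighbours also differed, with 75.6% G and C for Tuba1b and 56.8% for Tuba1a. Neither CCAAT nor GGGCGG was found only in isotypes that moved one way: CCAAT was in Tuba1a, which fell, and in Tubb5, which rose.

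Genes that fold, nucleate, bind or modify tubulin were read as 9 lists of 109 genes, of which 91 were tested. By limma, 26 were higher and 49 lower in STO cells, with a median log2 difference of -0.28. Over all genes, 41.9% were higher and 43.7% lower, with a median of -0.023. These shares are also the background for the counts of each list below, which by themselves are not results about a list. Of the 91 genes, 12 passed the filter through their NSC level alone and 2 through their STO level alone, which fixes their direction. Among the 77 at or over 1 FPKM in both cell types, 25 were higher and 37 lower, with a median of -0.12. The matching shares over all genes at or over 1 FPKM in both cell types were not computed, so these counts have no background beside them.

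Of the 10 other tubulins, 6 were tested, 1 was higher and 4 were lower, with a median of -0.76; 2 of the lower genes, Tubg2 and Tuba8, passed the filter through NSCs alone. On the TPM scale, after quantile normalization or without the filter, 2 were higher. Tuba4a, an alpha gene outside the 10, was 3.44 and 0 FPKM in NSCs and 27.8, 23.5 and 26.8 FPKM in STO cells (log2 difference 3.68 ± 0.57, SE). Its NSC samples disagree, and with all alpha tubulins in the sum the alpha total fell by 0.74 in place of 0.79. Tubg1, the gamma-tubulin that starts new microtubules, was 57.7 and 63.7 FPKM in NSCs and 33.0, 35.2 and 37.2 FPKM in STO cells, a fall by 0.77 on the log2 scale. Tubd1, the centriolar delta-tubulin, fell by 0.75, while Tube1, the epsilon-tubulin, was 2.36 and 2.07 FPKM in NSCs and 2.54, 2.40 and 2.78 FPKM in STO cells and was not called. Tuba8 was 1.58 and 1.36 FPKM and Tubg2 1.52 and 1.70 FPKM in NSCs, with Tuba8 at or under 0.0302 FPKM and Tubg2 listed at 0 in the STO samples.

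Of 14 tested genes of the CCT chaperonin and prefoldin, which fold new tubulin, 2 were higher and 5 lower (median -0.057). Tcp1, a chaperonin subunit, was 0.53 ± 0.062 (SE) higher and Pfdn1, a prefoldin subunit, 1.54 ± 0.10 (SE) lower on the log2 scale. The count of higher genes depended on scaling, at 6 on the TPM scale and 4 after quantile normalization. Of 8 cofactors that assemble the dimer or control tubulin mRNA decay, 1 was higher and 5 lower (median -0.27), and 3 were lower when either NSC replicate was left out or on the TPM scale. Tbcd, a cofactor that handles beta-tubulin, was 0.63 ± 0.057 (SE) higher. Ttc5, which recognises nascent tubulin when free dimers are plentiful and starts the decay of its mRNA, was 21.0 and 21.6 FPKM in NSCs and 12.2, 9.56 and 11.5 FPKM in STO cells and fell by 0.89 ± 0.10 (SE).

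The gamma-tubulin ring complex, the template for new microtubules, was listed without gamma-tubulin itself. Of these 9 genes, 6 were higher and 2 lower (median 0.50). The gamma-tubulin genes Tubg1 and Tubg2, counted with the other tubulins, were called lower, with log2 differences of -0.77 and -1.38. Tubg2 passed the filter through NSCs alone. Nedd1, the targeting subunit of the complex, was 0.71 ± 0.070 (SE) higher, and Mzt2, a small subunit, was 1.26 ± 0.055 (SE) lower. Of 9 tested severing and depolymerizing factors, 4 were higher and 3 lower (median 0.086), against 41.9% and 43.7% of all genes. Kif2c, a kinesin that takes apart microtubule ends in mitosis, was 0.87 ± 0.074 (SE) higher, and the katanin-like gene Katnal1 was 0.78 ± 0.054 (SE) lower.

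Of 15 tested structural microtubule-associated proteins, 14 were lower and 1 higher (median -1.77), but Mapt, Map7d2, Map6d1, Dcx and Map7 passed the filter through their NSC level alone. Among the 10 at or over 1 FPKM in both cell types, 9 were lower and 1 higher (median -0.63), again without a matching background over all genes. Mapt, which encodes the axonal protein tau, was 39.8 and 38.8 FPKM in NSCs and 0.758, 0.739 and 0.696 FPKM in STO cells, a fall by 4.54 ± 0.051 (SE) on the log2 scale. Map1s, a widely expressed member, was the 1 that was higher, by 0.33 ± 0.076 (SE). With the most abundant transcript in place of the sum, 4 were called higher. The list holds Map2 and Dcx, which are also among the neuron markers. Neuron markers summed to 523 to 526 FPKM in NSCs and 23.1 to 26.2 FPKM in STO cells. Most of the NSC sum was Gap43, at 362 and 360 FPKM, and Map2 itself, at 100 and 102 FPKM. Nefl, at 17.9 to 21.2 FPKM, made up most of the STO sum. The part of neuronal cells in the falls of the microtubule-associated proteins was not tested.

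Of the 3 stathmins tested, which bind free dimers, Stmn3 and Stmn4 passed the filter through their NSC level alone. Stmn3, a neural stathmin, was 76.6 and 69.9 FPKM in NSCs and 0.0390, 0.0341 and 0.0512 FPKM in STO cells and fell by 6.15 ± 0.059 (SE). Stmn1, the stathmin of dividing cells, was 214 and 201 FPKM in NSCs and 81.2, 88.0 and 94.9 FPKM in STO cells, a fall by 1.23 ± 0.080 (SE) on the log2 scale. It alone of the 3 was over 1 FPKM in both cell types. Of 12 plus-end proteins, which ride on growing tips, 3 were higher and 8 lower (median -0.34), or 5 lower with the most abundant transcript; 2 of the 8, Slain1 and Clip4, passed the filter through NSCs alone. Clip1 was 1.88 ± 0.064 (SE) higher, and Slain1 was 13.3 and 16.2 FPKM in NSCs and listed at 0 in all STO samples.

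Of 15 tested enzymes that modify tubulin, 8 were higher and 5 lower (median 0.33), but without the filter on low values 9 were higher and 10 lower, and with a minimum log2 difference of 1 the counts were 0 and 3. The deacetylase gene Hdac6 was 7.98 and 7.69 FPKM in NSCs and 17.0, 15.4 and 16.5 FPKM in STO cells, 0.97 ± 0.061 (SE) higher on the log2 scale. Vash1, a carboxypeptidase that removes the last tyrosine of alpha-tubulin, was 88.0 and 75.6 FPKM in NSCs and 0.688, 0.588 and 0.790 FPKM in STO cells and fell by 5.61 ± 0.087 (SE), with a direction fixed by the filter.

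**Figure D5:**
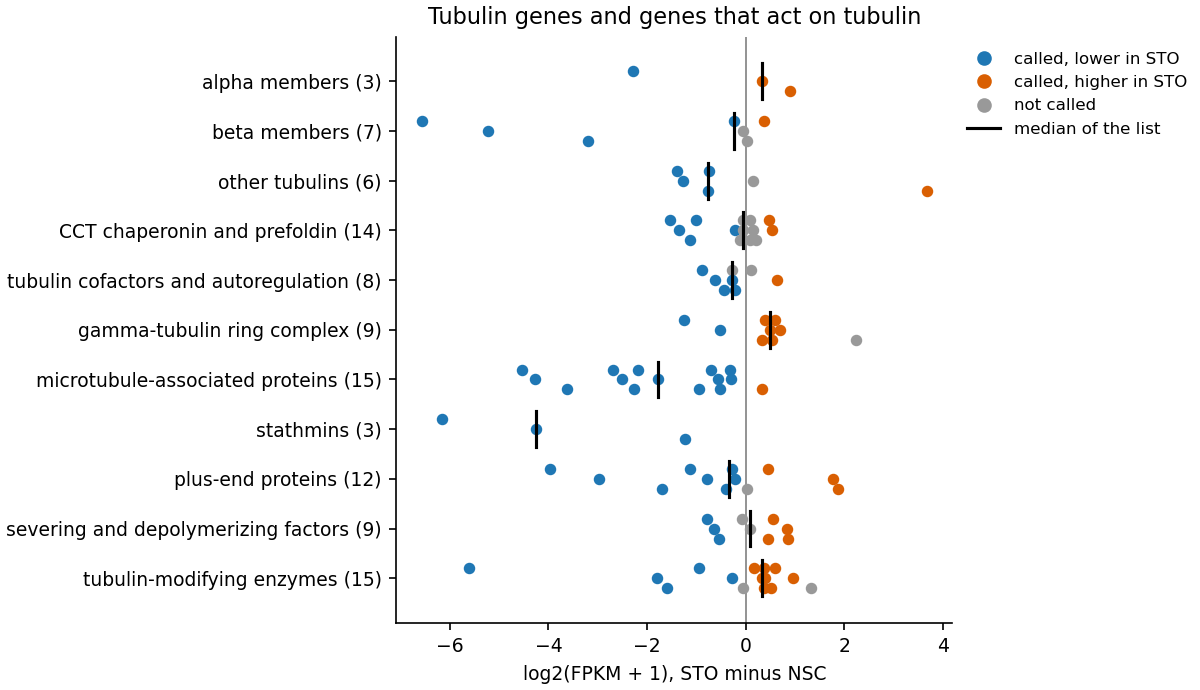
Log2(FPKM + 1) in STO cells minus NSCs for every tested gene of the alpha and beta isotypes and of the 9 lists, with the number tested in parentheses and black lines at list medians. Microtubule-associated proteins (median -1.77) and the 3 stathmins lie mostly to the left, in part genes that passed the filter through NSCs alone. Listed genes of the gamma-tubulin ring complex (median 0.50) lie mostly to the right. Gamma-tubulin itself (Tubg1 and Tubg2) is plotted with the other tubulins and lies to the left.

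Markers of other cells were low or moved with the cell type. The 4 astrocyte markers had a summed level of 70.4 to 71.4 FPKM in NSCs and 0.242 to 0.432 FPKM in STO cells, and all 4 passed the filter through their NSC level alone, which fixes their direction. The 7 microglia and endothelium markers summed to at most 0.583 FPKM in any sample, and none passed the filter. The part of each of these cell types in the isotype differences was not tested.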

How the data were processed

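The isotypes and gene lists were chosen with earlier results of these data known, and no test over a list was run. RNA-seq of 2 NSC and 3 STO samples was used, grouped by their titles. Per the labels and the study's methods, the authors trimmed reads of stranded mRNA libraries, aligned them to mm9 with HISAT2 (version given as 4.8.2), quantified them on RefSeq with Cufflinks 2.2.1, and deposited FPKM values with confidence bounds for 40201 transcripts; no read counts were used. Cufflinks had to divide fragments between near-identical isotypes, and its setting for such fragments is not given in the sources used here. Between 0 and 20 transcripts per sample lacked the status OK, none of them an isotype.

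Symbols were matched through RefSeq identifiers (39951 transcripts, 99.4%; table of GRCm38.p6, names only) and FPKM was summed per gene. An exact 0 can be a failed estimate. The comparison used limma (version 3.58.1, R 4.3.3), with lmFit followed by eBayes and a variance trend, on log2(FPKM + 1) for 12292 genes with a mean of at least 1 FPKM in either cell type. Cell type was the only term, p-values were adjusted by Benjamini-Hochberg, and 0.05 was the threshold. The fit was tested on simulated data. Differences on this scale understate the change of low genes. Fragments were implied from the deposited bounds, taking the distance to the upper bound as 2 Poisson standard deviations, and cover counting error only. Windows of 100 bases of GENCODE vM1 transcripts were searched in mm9 on both strands and coding sequences were aligned globally (Python 3.11.15, Biopython 1.88, numba 0.67.0). Exact permutation tests used scipy 1.17.1. Named genes were the 10 isotypes, other tubulins over 1 FPKM, and of each list the called gene with the largest rise and with the largest fall where the samples of the cell types did not overlap; Stmn1 and the markers were added for their levels. Alternatives changed the pseudocount (0.1), filter, trend, scaling, transcript choice, minimum fold change, replicate block and the samples included. The coding ends of the alpha genes are not reported here.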

Additional observations from a re-analysis of the deposited data

How the results depend on the processing

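Tuba1a, Tubb2a, Tubb2b and Tubb4a kept their direction and call under every alternative run, as did Tuba1b and Tubb5 except with a minimum log2 difference of 1. With that minimum, 0 isotypes were called higher, 3 list genes were called higher and 25 lower, and 2103 and 2617 of all genes were called higher and lower, since the rule itself removes smaller differences; of the microtubule-associated proteins it left 8 lower, of plus-end proteins 4 lower, and of the gamma-tubulin ring complex 0 higher. Tubb3 changed sign at 0.10 on the TPM scale and at 0.024 in the leave-one-out fits, which ranged from -0.14 to 0.024; the cause was not tested. Tubb4a ranged from -7.35 with a pseudocount of 0.1 to -4.82 after quantile normalization. Its direction was fixed by the filter in every fit that kept the filter. All 100 values of isotype shares under 10 alternatives kept their direction. Their calls are not weighed here, because the spread of a sample's sum enters every gene of that sample. The alpha sum ranged from -0.84 to -0.72 and the beta sum from -1.24 to -1.15 with 1 sample left out; fits that left 1 NSC sample assume that it varies like the STO samples. With a replicate block, 3 isotypes were higher and 5 lower, as without it, and 4994 of all genes were higher and 5252 lower. The block changed no isotype's call. Only STO cells have a replicate 3, so the block takes that sample out of the difference. Tuba1b, for example, was 1.01 with the block and 1.01 without STO replicate 3. The labels share replicate numbers but do not pair the samples, and deviations of same-numbered samples correlated at 0.0075 and 0.061, against -0.061 to 0.050 for other pairs. Depth limits Tubb4a in STO cells, and shared sequence limits the split among alpha genes and between Tubb2a and Tubb2b. Tubb4b is limited too, with 30.0% of its windows found elsewhere in the genome. Its deposited intervals correspond to 5.89 fragments per FPKM and kilobase, against 25.9 to 30.0 for the other isotypes. The cause was not tested.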
